A study of Mus musculus with 6 samples.

Results

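Transcripts of 6 genes of pericellular proteolysis were described in cultures of CAFs (cancer-associated fibroblasts, which support and remodel a tumour): the plasminogen activators Plat and Plau, the receptor Plaur, the inhibitor Serpine2, and the proteases Fap and Ctsk. They were chosen by gene symbol, are 6 of the 55401 genes in the count table, and all 6 were among the 13590 genes with enough reads to test. The cells came from tumours grown from mouse tumour organoids placed in the rectum of Thbs2KO hosts, which lack functional Thbs2 (thrombospondin-2, a secreted matricellular glycoprotein), or of wild-type (WT) hosts. There were 3 Thbs2KO and 3 WT libraries of bulk RNA. Cells of both groups were grown on fibronectin in medium with 10% fetal bovine serum before RNA was taken. The columns of the count table carry the same run of CAF numbers in both genotypes, but the labels do not say what the numbers mean. Nothing in the labels states that a replicate was a mouse or a culture of its own. The p-values therefore cover only library-to-library spread, possibly technical. The sources used here do not give the hosts' strain, age, sex or allele, or the genotype of the organoids.

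Plasmin is a broad serine protease made from circulating plasminogen by tissue-type plasminogen activator (Plat) or by urokinase (Plau). Urokinase is held at the cell surface by its receptor Plaur, a lipid-anchored protein, and plasmin formed there cleaves fibrin and matrix glycoproteins and activates some matrix metalloproteinases. Both activators are blocked by serpins, among them protease nexin-1 (Serpine2, which also inhibits thrombin), and the complexes are taken up through the receptor Lrp1. Fap, fibroblast activation protein, is a membrane serine protease that cuts after proline and is widely used as a CAF marker. Ctsk, cathepsin K, is a cysteine protease, not a serine protease, and is known for cleaving triple-helical collagen.

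The libraries held 19649066 to 20860335 expected counts in Thbs2KO and 23061568 to 24417464 in WT. Thbs2 itself measured 538.2, 424.7 and 412 CPM (read counts relative to library size, scaled between libraries with TMM factors) in Thbs2KO replicates 1, 2 and 3, against 2327, 4166 and 3705 CPM in WT replicates 1, 2 and 3. A pair of libraries stood apart from the rest of their groups: the second principal component (27.9% of the variance) placed Thbs2KO replicate 3 and WT replicate 1 on one side and the other 4 libraries on the other. All 12 fibroblast markers were detected, with a summed level of 34460 to 53380 CPM in Thbs2KO and 34750 to 40540 CPM in WT. Markers of other cells varied in level. Ptprc (leukocytes) was at most 0.05 CPM in Thbs2KO and 0.17 CPM in WT, and Pecam1 (endothelium) at most 0.43 CPM in Thbs2KO and 0.29 CPM in WT, while Kdr (endothelium) reached 44.97 CPM in Thbs2KO and 26.3 CPM in WT, Krt19 (epithelium) 6.22 CPM in Thbs2KO and 14.6 CPM in WT, and Lyz2 (macrophages) 5.53 CPM in Thbs2KO and 10.3 CPM in WT. The 12 epithelial markers summed to 12.6 to 18.2 CPM in Thbs2KO and 25.1 to 34.6 CPM in WT, and the 7 mast cell markers to 0.587 to 1.94 CPM in Thbs2KO and 0.438 to 0.922 CPM in WT, with Cpa3, Fcer1a and Tpsb2 at 0; their part in the results was not tested.

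None of the 6 genes passed the test between genotypes, and the groups overlapped for each. In bulk RNA, fewer cells that make a transcript and less of it per cell cannot be told apart. By the quasi-likelihood test of edgeR with Benjamini-Hochberg adjustment over all genes at a threshold of 0.05, 0 of 6 were called, where 1.09% of all tested genes were. At an unadjusted p under 0.05 there was 1 of 6, Plaur, which was lower; 13.3% of all genes were there, 7.56% lower and 5.72% higher. DESeq2 called 0 of 6, where it called 4.37% of all genes it could test, and limma-voom also called 0, where it called 1.08% of all genes. Here and below, the 4.37% is over the 15546 genes DESeq2 could test, a larger set than edgeR tested. DESeq2 counts in the gene lists are over genes that edgeR tested. Of those 13590 genes DESeq2 called 293 higher and 360 lower. Exact permutation tests over the libraries, two-sided, gave p from 0.3 to 0.9 for the 6 genes, with 0.1 the smallest possible. Groups that do not overlap were found for 0 of 6 and for 19.7% of all tested genes. The log2 fold change (Thbs2KO over WT) was positive for 5 and negative for Plaur, with a median of 0.32 against -0.004 over all tested genes. Without both libraries that stood apart, an alternative chosen after the data were examined, edgeR called 2 of the 6, Plaur lower and Plat higher, where 11.2% of all genes were called. That fit kept only the most alike pair of each genotype, Thbs2KO replicates 1 and 2 and WT replicates 2 and 3. Its p-values, here and below, therefore rest on a small spread that may be technical.

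**Figure D1:**
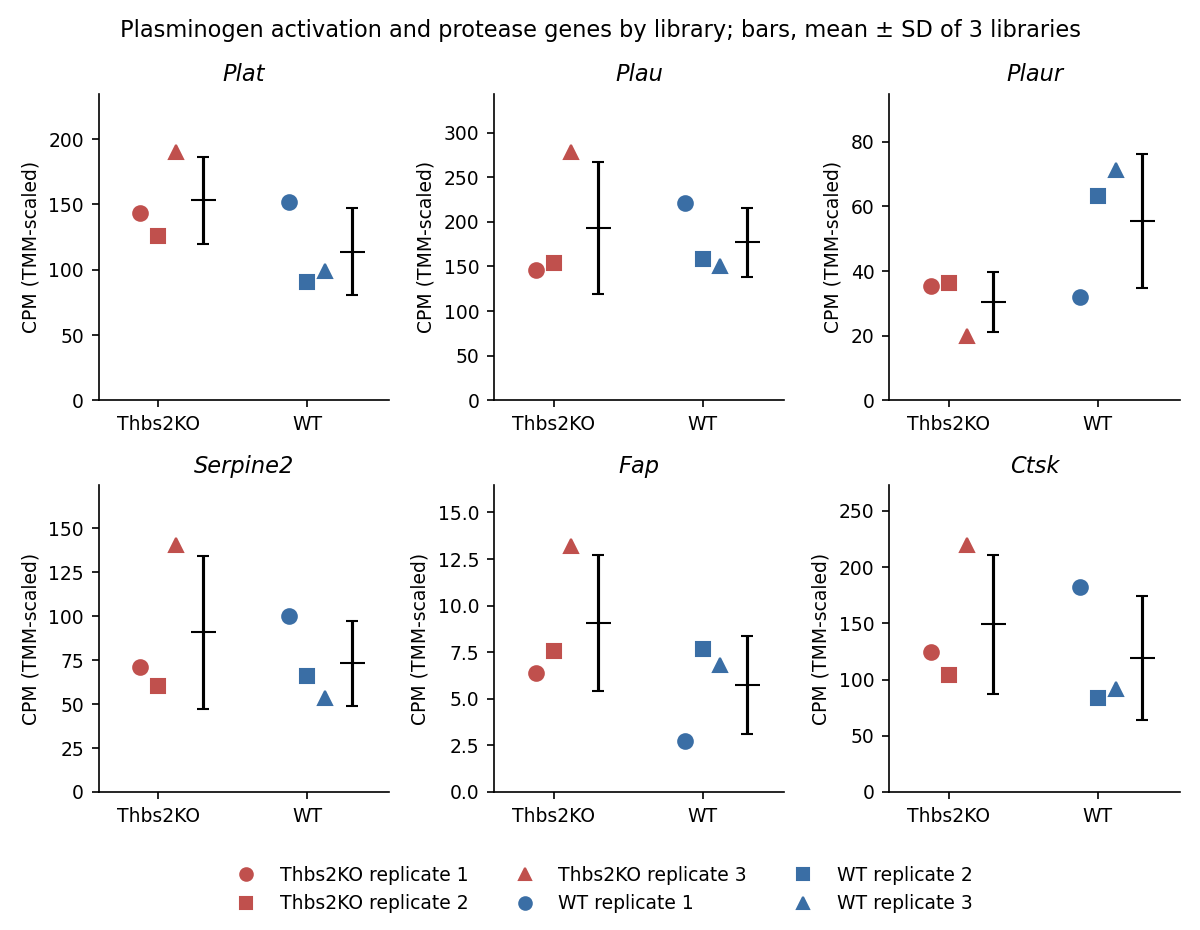
Level of each of the 6 genes in CPM, scaled with TMM factors, in the Thbs2KO libraries (red) and the WT libraries (blue); symbols give the replicate, and black bars the mean ± SD of 3 libraries. Thbs2KO replicate 3 is the highest library for every gene except Plaur, where it is the lowest at 19.8 CPM, and WT replicate 1 lies next to it for Plat, Plau, Serpine2 and Ctsk.

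The activators were expressed at unequal levels, and neither differed between the genotypes beyond the spread of the libraries. Plat (ENSMUSG00000031538.6, chromosome 8, 22757727 to 22782844, plus strand, mm10) measured 143.5, 125.8 and 190.3 CPM in Thbs2KO replicates 1, 2 and 3, against 151.7, 90.96 and 98.99 CPM in WT replicates 1, 2 and 3. The Thbs2KO libraries lay above WT replicates 2 and 3, and WT replicate 1 lay among them. The mean was 153.2 ± 33.3 CPM in Thbs2KO and 113.9 ± 33.0 CPM in WT (SD, n = 3 each). The log2 fold change was 0.43, with a 95% interval of -0.14 to 0.99 (edgeR, Benjamini-Hochberg adjusted p = 0.519). Without both Thbs2KO replicate 3 and WT replicate 1 the log2 fold change was 0.50 and passed the test (edgeR, Benjamini-Hochberg adjusted p = 0.0118). Endothelial cells are a known source of Plat, and 8 of 10 endothelial markers were under 1 CPM in all libraries, with Cldn5 at 0. That list summed to 32.6 to 50.7 CPM in Thbs2KO and 12.01 to 32.5 CPM in WT, most of it from Kdr and Tek; its part in the values of Plat was not tested.

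Plau (ENSMUSG00000021822.3, chromosome 14, 20836660 to 20843385, plus strand) measured 146.2, 154.1 and 278.5 CPM in the Thbs2KO libraries, against 221.6, 158.9 and 150.2 CPM in the WT libraries. One library of each genotype was high, Thbs2KO replicate 3 and WT replicate 1, and the other 4 lay between 146.2 and 158.9 CPM. The mean was 192.9 ± 74.2 CPM in Thbs2KO and 176.9 ± 39.0 CPM in WT (SD, n = 3 each), and the log2 fold change was 0.13 with a 95% interval of -0.55 to 0.80 (edgeR, Benjamini-Hochberg adjusted p = 0.913). Its sign turned to -0.24 without Thbs2KO replicate 3. The highest library was 1.91 times the lowest within Thbs2KO and 1.48 times within WT, while the Thbs2KO mean was 1.09 times the WT mean.

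Plaur, the urokinase receptor (ENSMUSG00000046223.10, chromosome 7, 24462484 to 24475968, plus strand), was the only one of the 6 genes with a lower mean in Thbs2KO. It measured 35.2, 36.3 and 19.8 CPM in the Thbs2KO libraries, against 32.1, 63.2 and 71.4 CPM in the WT libraries. WT replicates 2 and 3 lay above every Thbs2KO library, and WT replicate 1 lay below Thbs2KO replicates 1 and 2. The mean was 30.5 ± 9.23 CPM in Thbs2KO and 55.6 ± 20.7 CPM in WT (SD, n = 3 each). The log2 fold change was -0.87 with an unadjusted 95% interval of -1.70 to -0.03 and did not pass the test (edgeR, Benjamini-Hochberg adjusted p = 0.355; DESeq2, adjusted p = 0.152). With 1 library left out the value ran from -1.14 to -0.63 and passed in none of the 6 fits. Without both libraries that stood apart it was -0.91 and passed (edgeR, Benjamini-Hochberg adjusted p = 0.0012). That fit held only the most alike pair of each genotype, and its standard error was 0.075, against 0.349 with all 6 libraries. Markers of pericytes and smooth muscle summed to 381.5 to 535.5 CPM in Thbs2KO and to 362.7 to 1314 CPM in WT, with WT replicate 1 the lowest library; their part in the values of Plaur was not tested.

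The sequence before the start of Plaur is shown because Plaur had the smallest p of the 6 genes and because AP-1, a factor of growth-factor and stress responses, is textbook background for the urokinase system. The RefSeq window covers the 250 bases upstream of the start (GRCm38.p6, chr7:24462233-24462482, plus strand), with a match to TGACTCA, a consensus AP-1 site, in capitals.
Plaur upstream: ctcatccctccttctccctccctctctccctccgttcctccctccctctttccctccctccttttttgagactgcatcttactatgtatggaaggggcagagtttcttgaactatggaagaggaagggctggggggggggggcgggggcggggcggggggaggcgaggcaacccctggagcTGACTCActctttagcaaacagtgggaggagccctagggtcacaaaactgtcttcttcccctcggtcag
The match begins 69 bases before the start. TGACTCA was sought on both strands (TGAGTCA on the other), and 4.46% of 32851 windows of the same length held it. Windows were at hand for 3 of the 6 genes, and those of Serpine2 and Ctsk held no match. The Serpine2 window (chr1:79858666-79858915, minus strand) lies inside the annotated span of that gene, 79794197 to 79861180, and not before its outermost start. The match is a description of letters and was not measured as a bound site.

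Serpine2, the inhibitor protease nexin-1 (ENSMUSG00000026249.10, chromosome 1, 79794197 to 79861180, minus strand), measured 71.0, 60.4 and 140.8 CPM in the Thbs2KO libraries, against 100.3, 65.7 and 53.7 CPM in the WT libraries. As for Plau, the high libraries were Thbs2KO replicate 3 and WT replicate 1. The mean was 90.7 ± 43.7 CPM in Thbs2KO and 73.3 ± 24.2 CPM in WT (SD, n = 3 each), with a log2 fold change of 0.31 and a 95% interval of -0.58 to 1.19 (edgeR, Benjamini-Hochberg adjusted p = 0.812). The sign turned to -0.16 without Thbs2KO replicate 3. Glial cells are another known source of Serpine2, and 6 of 8 glial markers were under 1 CPM in all libraries, with Sox10 and Foxd3 at 0. The glial list summed to 76.9 to 191.7 CPM in Thbs2KO and 16.1 to 32.4 CPM in WT, nearly all of it from Ngfr, which fibroblasts can also express; its part in the result was not tested.

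Serpinb2, which encodes plasminogen activator inhibitor 2, was tested at a low level. It measured 0.567, 1.22 and 0.293 CPM in the Thbs2KO libraries, against 1.16, 0.964 and 6.41 CPM in the WT libraries, and the groups overlapped. The log2 fold change was -2.03 (SE 0.893) and did not pass the test (edgeR, Benjamini-Hochberg adjusted p = 0.4). It was -0.61 without WT replicate 3, the only library above 2 CPM.

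Ratios between these genes within a library do not depend on the scaling between libraries. They were chosen after the values were seen, carry no test, and use levels per kilobase of annotated exon. Plaur was 0.218, 0.213 and 0.0643 times Plau in the Thbs2KO libraries, against 0.131, 0.36 and 0.43 times in the WT libraries, and the groups overlapped. Plat was 0.372, 0.31 and 0.2592 times Plau in the Thbs2KO libraries, against 0.2595, 0.217 and 0.25 times in the WT libraries. Here too the groups overlapped, as Thbs2KO replicate 3 lay just below WT replicate 1.

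**Figure D2:**
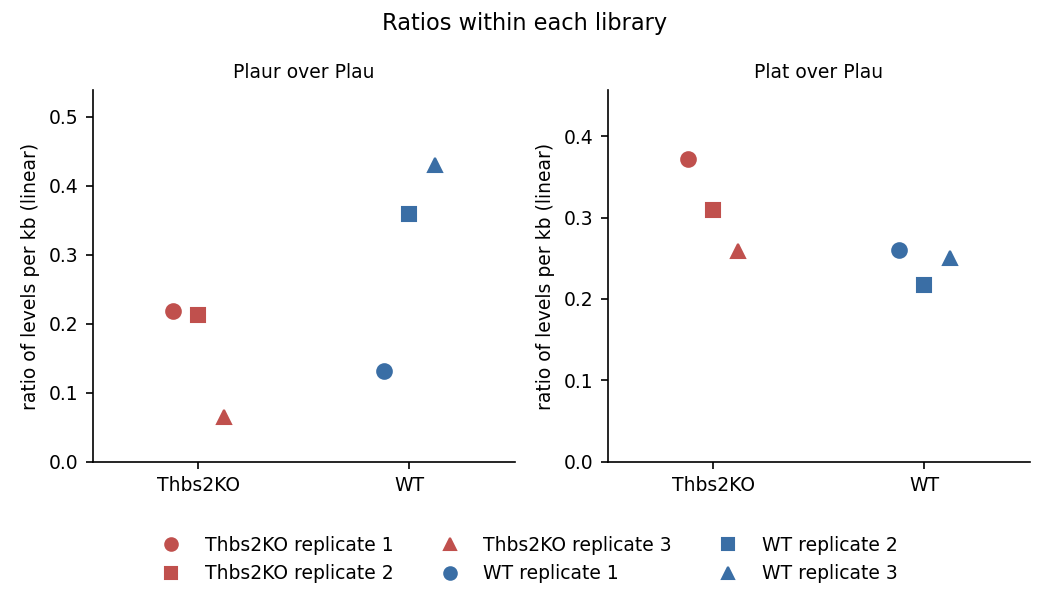
Ratio of levels per kilobase of exon within each library, on linear axes from 0, with Thbs2KO libraries in red and WT libraries in blue and symbols giving the replicate. Plaur relative to Plau was 0.36 and 0.43 in WT replicates 2 and 3 and between 0.0643 and 0.218 in the other 4 libraries.

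Fap (ENSMUSG00000000392.17, chromosome 2, 62500943 to 62574075, minus strand) had the lowest level of the 6 genes per kilobase of exon. It measured 6.38, 7.58 and 13.2 CPM in the Thbs2KO libraries, against 2.76, 7.67 and 6.83 CPM in the WT libraries, from 135 to 270 reads in Thbs2KO and 64 to 175 reads in WT. Thbs2KO replicate 3 was the highest library, WT replicate 1 the lowest, and the other 4 lay between 6.38 and 7.67 CPM. The mean was 9.06 ± 3.64 CPM in Thbs2KO and 5.75 ± 2.63 CPM in WT (SD, n = 3 each), with a log2 fold change of 0.65 and a 95% interval of -0.39 to 1.70 (edgeR, Benjamini-Hochberg adjusted p = 0.615). Without both of those libraries it was -0.05. Dpp4, the nearest relative of Fap, had 1 to 4 reads per library in Thbs2KO and 1 to 32 in WT and was not tested.

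Ctsk (ENSMUSG00000028111.4, chromosome 3, 95499256 to 95509362, plus strand) measured 124.2, 103.8 and 219.7 CPM in the Thbs2KO libraries, against 182.6, 83.2 and 91.8 CPM in the WT libraries. Thbs2KO replicate 3 and WT replicate 1 were again highest, and the other Thbs2KO libraries lay above the other WT libraries. The mean was 149.2 ± 61.9 CPM in Thbs2KO and 119.2 ± 55.1 CPM in WT (SD, n = 3 each), and the log2 fold change was 0.32 with a 95% interval of -0.61 to 1.26 (edgeR, Benjamini-Hochberg adjusted p = 0.813). It ran from -0.06 without Thbs2KO replicate 3 to 0.77 without WT replicate 1. Osteoclasts and macrophages also make cathepsins. Of 12 of their markers 7 were under 1 CPM in all libraries, and the list summed to 10.6 to 18.0 CPM in Thbs2KO and 11.04 to 22.6 CPM in WT, highest in WT replicate 3; its part in the values of Ctsk was not tested.

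Per kilobase of exon the order of the levels was the same in both genotypes for the top and the bottom of the list. In Thbs2KO, Ctsk averaged 98.7 ± 40.9, Plau 81.5 ± 31.3, Plat 24.6 ± 5.34, Plaur 11.6 ± 3.53, Serpine2 10.95 ± 5.27 and Fap 1.60 ± 0.643 CPM per kilobase (SD, n = 3). In WT, Ctsk averaged 78.9 ± 36.4, Plau 74.7 ± 16.5, Plaur 21.2 ± 7.92, Plat 18.3 ± 5.28, Serpine2 8.84 ± 2.92 and Fap 1.02 ± 0.464 CPM per kilobase (SD, n = 3). Ctsk and Plau were within their spread of each other in both genotypes, as were Plaur and Serpine2 in Thbs2KO and Plaur and Plat in WT. Exon lengths are of all annotated exons joined, so a gene whose long exons are little used is placed too low.

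Across the 6 libraries, Plat, Plau, Serpine2 and Ctsk shared a pattern, Plaur ran against it, and Fap followed neither. As the measure of likeness, each gene's log2 CPM was taken as deviations from its own mean, and the root mean square difference was computed over the 6 libraries. The pairs among Plat, Plau, Serpine2 and Ctsk differed by 0.17 to 0.25. Fap differed from those 4 by 0.70 to 0.85, and Plaur by 0.912 to 1.103. Thbs2KO replicate 3 and WT replicate 1 were the 2 highest libraries for 4 of the 6 genes and the lowest for Plaur, patterns that hold for 19.1% and 17.6% of all tested genes.

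**Figure D3:**
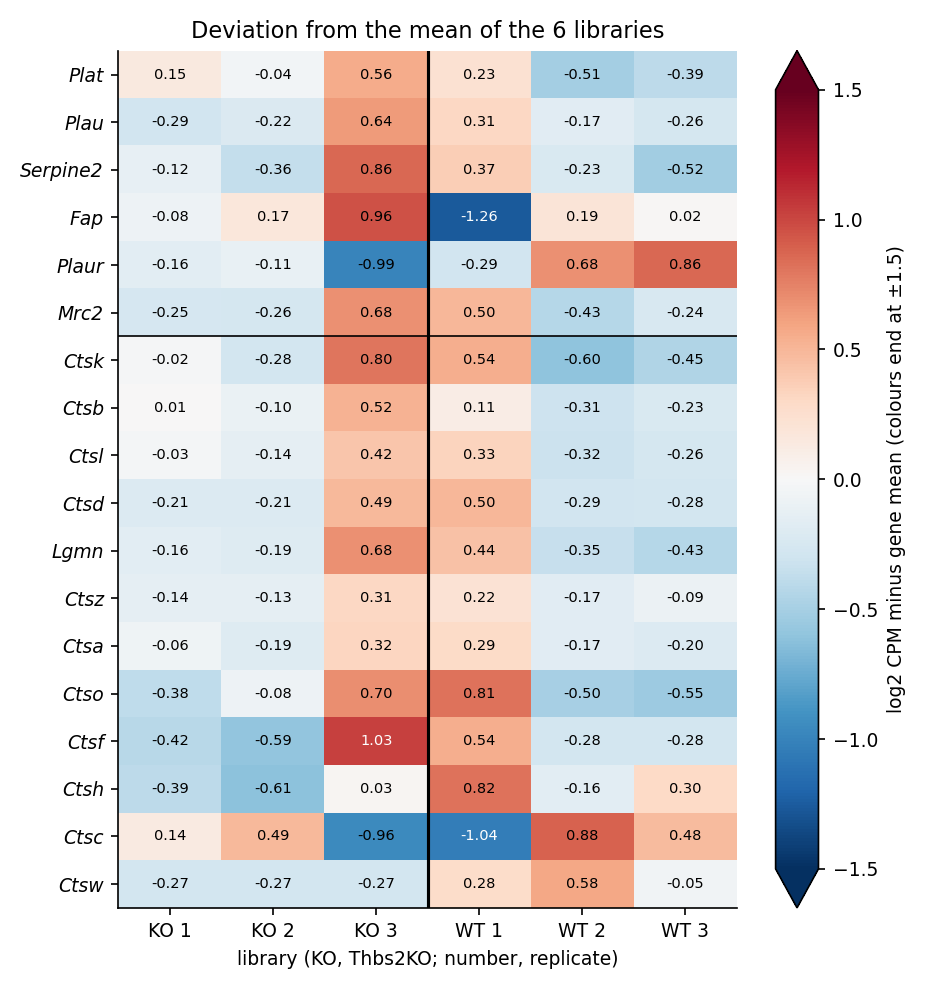
Deviation of log2 CPM from each gene's mean over the 6 libraries, by library, for the 6 genes, for Mrc2, and below the line for the tested cathepsins and the asparaginyl protease Lgmn; KO stands for Thbs2KO and the number for the replicate. The Thbs2KO replicate 3 and WT replicate 1 columns are both above the mean for Plat, Plau, Serpine2, Ctsk and most cathepsins, and both below it for Plaur and Ctsc.

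The genes nearest in pattern were taken from 8953 tested genes of at least 10 CPM that carry an established gene name. For Plau they were Man2b2, a lysosomal mannosidase (difference 0.02), and Ccpg1, a receptor for autophagy of the endoplasmic reticulum (0.04). For Serpine2 they were Crebrf (0.06) and Rin2 (0.08), and for Plat Blvrb and Ptprs (0.06 each). For Ctsk they were the growth factor gene Vegfd (0.07) and the cholesterol exporter gene Abca1 (0.08). Plaur was less closely matched, by Noct (0.12), and Fap least, by Nuak1 (0.26) and Fibin (0.28). These values describe the 6 libraries and carry no test.

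In the lists of the plasminogen system (activators, receptors, inhibitors and clearance receptors), 0 of 18 tested genes passed the test, Plat, Plau, Plaur and Serpine2 included, where 1.09% of all tested genes did. At an unadjusted p under 0.05, 2 of 18 were lower, Plaur and Lrp2, against 7.56% of all tested genes. By DESeq2 1 was called, Lrp2, which was lower, where 4.37% of all genes were called. The median log2 fold change was 0.07. Plg, plasminogen itself, had 0 reads in every library, which allows up to 0.147 CPM in Thbs2KO and 0.131 CPM in WT from counting error alone. Serpine3, Serpina5, Cpb2 and Pzp also had 0 reads, and Serpinf2, the main plasmin inhibitor, had at most 1 read in Thbs2KO and 6 in WT. Transcripts of plasminogen-binding proteins of the cell surface differed in level. Plgrkt, a plasminogen receptor, averaged 19.65 ± 2.10 CPM in Thbs2KO and 21.4 ± 3.46 CPM in WT. Anxa2 averaged 1017 ± 105.1 CPM in Thbs2KO and 957.6 ± 127.3 CPM in WT, and its partner S100a10 104.3 ± 14.3 and 98.0 ± 23.8 CPM in Thbs2KO and WT (SD, n = 3; these genes were chosen after their values were seen). Eno1, alpha-enolase, a glycolytic enzyme that also binds plasminogen, had the smallest p of the receptor list apart from Plaur, with a log2 fold change of -0.30 (edgeR, Benjamini-Hochberg adjusted p = 0.546).

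**Figure D4:**
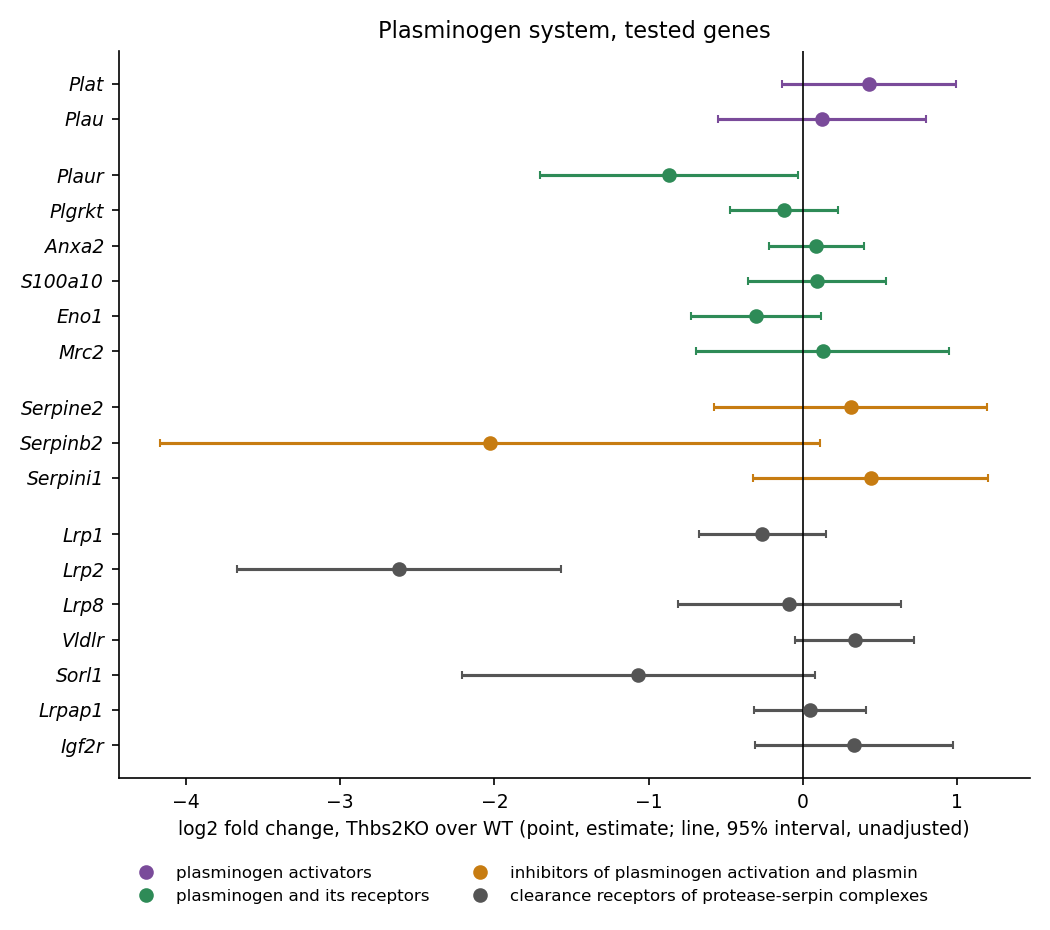
Log2 fold change of 18 tested genes of the plasminogen system, Thbs2KO over WT, grouped by role; points are edgeR estimates and lines 95% intervals without adjustment. Plaur and Lrp2 have intervals below 0, and the intervals of the activators Plat and Plau span 0.

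Of the 7 genes listed with the clearance receptors, Lrp1 is the main receptor for complexes of protease and serpin and also binds thrombospondin-2. It averaged 2753 ± 117.8 CPM in Thbs2KO and 3304 ± 802.3 CPM in WT (SD, n = 3), with WT replicate 1 highest at 4229 CPM. Its log2 fold change was -0.26 (edgeR, Benjamini-Hochberg adjusted p = 0.609), and -0.05 without WT replicate 1. Lrp2, megalin, was the receptor with the smallest p, at a low level of 0.783 ± 0.509 CPM in Thbs2KO and 4.85 ± 0.958 CPM in WT (SD, n = 3), with a log2 fold change of -2.62 just outside the threshold (edgeR, Benjamini-Hochberg adjusted p = 0.057). It passed by DESeq2 (adjusted p = 1.12e-06), by limma-voom (adjusted p = 0.0386), and by edgeR with no filter (Benjamini-Hochberg adjusted p = 0.0165), without Thbs2KO replicate 1 (0.0319) and without both libraries that stood apart (0.0317). Over these and the other alternatives the adjusted p ran up to 0.207. Known partners downstream did not pass the test with all 6 libraries. Mmp2 measured 743.6, 698.1 and 1754 CPM in the Thbs2KO libraries, against 808.6, 340.3 and 393.2 CPM in the WT libraries. Mmp2, the gelatinase that Lrp1 clears with thrombospondin-2, had a log2 fold change of 1.05, its activator Mmp14 one of 0.24 and Tgfb1, whose latent product plasmin can release, one of 0.07 (edgeR, Benjamini-Hochberg adjusted p = 0.411, 0.726 and 0.853). For Mmp2 it ran from 0.49 without Thbs2KO replicate 3 to 1.54 without WT replicate 1, and without both it was 0.98 and passed (edgeR, Benjamini-Hochberg adjusted p = 0.00159).

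In the remaining protease lists 1 gene passed the test by edgeR with all 6 libraries. Pcsk6, a proprotein convertase that cuts growth factor precursors, fell to 17.8 ± 2.26 CPM in Thbs2KO, against 41.1 ± 9.85 CPM in WT (SD, n = 3), and its log2 fold change was -1.21 (SE 0.192; edgeR, Benjamini-Hochberg adjusted p = 0.0483). That call was lost with 5 of the 6 libraries left out in turn, with adjusted p up to 0.218, while the log2 fold change stayed between -1.36 and -1.0. It was also lost with RLE scaling (adjusted p = 0.0504), limma-voom (0.0626), the stricter filter (0.053), the replicate block (0.117) and Thbs2KO replicates 1 and 2 summed (0.174), and held by DESeq2 (adjusted p = 3.79e-06). It was 1 of 6 tested convertases, where 0.537% of all genes were called lower. Over all 9 protease and inhibitor lists together, 69 of 93 genes were tested, and edgeR called 0 higher and 1 lower, where it called 1.09% of all tested genes. The median log2 fold change was 0.02, against -0.004 over all tested genes. DESeq2 called 2 higher and 4 lower, where it called 4.37% of all genes it could test.

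Among 18 tested serine proteases and coagulation factors and receptors, Fap included, edgeR called 0, where it called 1.09% of all tested genes. At an unadjusted p under 0.05, 3 were lower, against 7.56% of all tested genes. Thbd, thrombomodulin, which turns thrombin towards activating protein C, averaged 38.3 ± 1.65 CPM in Thbs2KO and 60.8 ± 12.8 CPM in WT (SD, n = 3). It did not pass by edgeR (Benjamini-Hochberg adjusted p = 0.117) and passed by DESeq2 (adjusted p = 0.01). By edgeR it passed without WT replicate 1 (Benjamini-Hochberg adjusted p = 0.0369) and without both libraries that stood apart (0.0264). Of 12 tested cathepsins and Lgmn, Ctsk included, edgeR and DESeq2 called 0, where they called 1.09% and 4.37% of all genes. At an unadjusted p under 0.05, 1 was lower, Ctsh (log2 fold change -0.67), against 7.56% of all tested genes. The median over the 12 was 0.07. For 9 of these 12 the highest libraries were Thbs2KO replicate 3 and WT replicate 1, as for 19.1% of all tested genes; Ctsb, for example, measured 1134 CPM in Thbs2KO replicate 3 and 856.1 CPM in WT replicate 1, against 797.4 and 738.6 CPM in the other Thbs2KO libraries and 638.5 and 677.4 CPM in the other WT libraries. Mrc2, a collagen receptor that associates with Plaur, had the same 2 highest libraries, with 1232 CPM in Thbs2KO replicate 3 and 1086 CPM in WT replicate 1. Ctsb, Mrc2 and this count were chosen after their values were seen. Of 4 tested genes listed as cathepsin inhibitors edgeR called 0, where it called 1.09% of all tested genes. The smallest p was that of Timp3, which inhibits metalloproteinases and not cathepsins. Timp3 averaged 602.7 ± 111 CPM in Thbs2KO and 946.7 ± 173.8 CPM in WT (SD, n = 3). Its groups did not overlap, as for 19.7% of all tested genes. With all 6 libraries it was lower by DESeq2 (adjusted p = 0.0225) and did not pass by edgeR (Benjamini-Hochberg adjusted p = 0.181). Without both libraries that stood apart it passed by edgeR (Benjamini-Hochberg adjusted p = 0.0321). No call was made by edgeR among 11 other serpins, where it called 1.09% of all tested genes. Of the 11, 2 had an unadjusted p under 0.05 and a higher level and 1 a lower level, against 5.72% and 7.56% of all tested genes. Serpinb8 had the smallest p, with a log2 fold change of 1.36 (edgeR, Benjamini-Hochberg adjusted p = 0.0759), and passed by edgeR with no filter (0.0471), without Thbs2KO replicate 3 (0.0404) and without both libraries that stood apart (0.00658). DESeq2 called 2 of the 11, Serpinb8 (adjusted p = 0.00126) and Serpinb1a (adjusted p = 0.00889), both higher, where it called 4.37% of all genes.

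**Figure D5:**
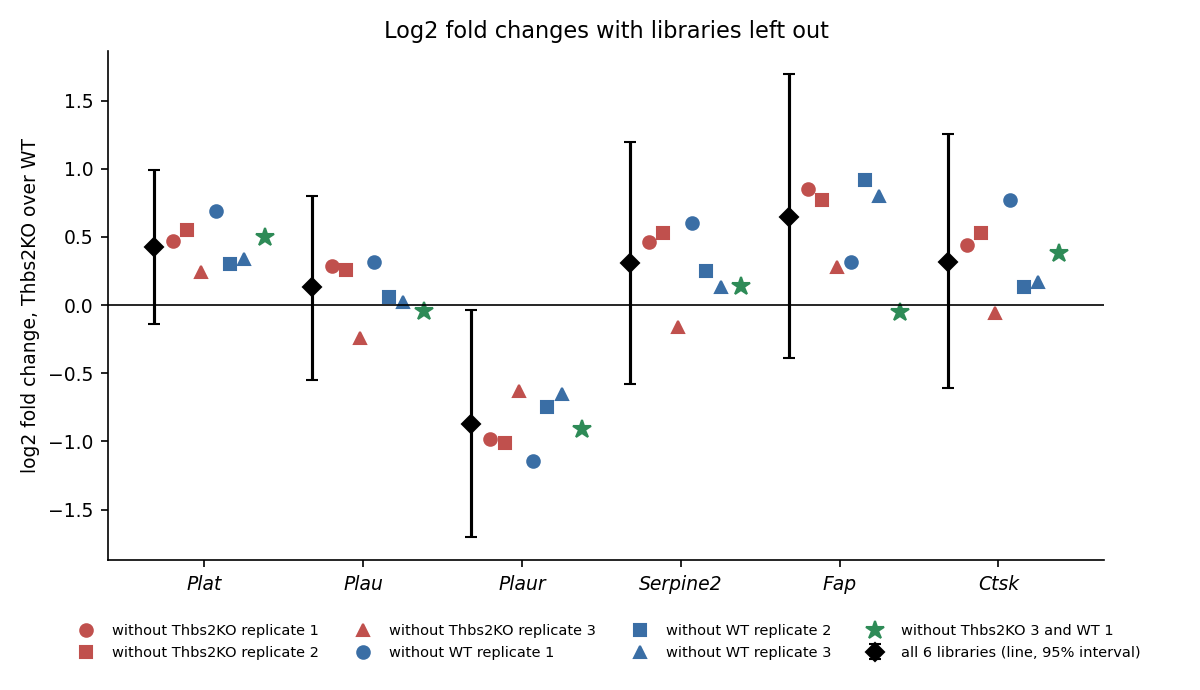
Log2 fold change of the 6 genes, Thbs2KO over WT, with all 6 libraries (black, with the unadjusted 95% interval), with each library left out (coloured symbols) and without both Thbs2KO replicate 3 and WT replicate 1 (green star). Plaur stays below 0, from -1.14 to -0.63, and Plat above 0, from 0.24 to 0.69, when 1 library is left out, while Plau, Serpine2 and Ctsk turn below 0 without Thbs2KO replicate 3.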

How the data were processed

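The 3 Thbs2KO and 3 WT libraries of CAFs were sequenced as bulk RNA. The authors deposited expected counts per gene with no scaling. The submitters' processing notes name mm10, Trimmomatic 0.39, RSEM and STAR 2.7.3a; no source used here gives the annotation or the version of RSEM, which shares reads that match several genes by an estimate. Per the labels' protocols the library kit was TruSeq v2; no other annotated gene lies over any of the 6 genes, so missing strand does not bear on them. Counts were rounded, genes kept with filterByExpr, and Thbs2KO compared with WT by edgeR 4.0.16 (TMM, robust quasi-likelihood test, genotype only) in R 4.3.3, with Benjamini-Hochberg adjustment over 13590 genes at 0.05. Intervals and standard errors derive from that fit's F statistic. Positions and exon lengths are from GENCODE M21 (GRCm38, the build of mm10). The members and lists were chosen with earlier results of these data known. The text names the 6 members, their counterparts Lrp1, Mmp2, Mmp14 and Tgfb1, the 2 genes nearest in pattern to each member, and in each list the called genes or, with none, the gene with the smallest p; a few genes that fall under this rule or in these lists are not reported here, and the list counts leave them out. Thbs2KO replicates 1 and 2 were the most alike libraries (chi-square per degree of freedom 3.72, against 14.6 to 113 for other pairs) and were kept as 2. The steps were tested on simulated counts. Alternatives were DESeq2 1.42.0, limma-voom (limma 3.58.1), upper-quartile and RLE scaling, other filters, no robust estimation, a replicate block and each library left out, with 2 more added after the data were examined. Floors and counting intervals cover counting error only.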

Additional observations from a re-analysis of the deposited data

How the results depend on the processing

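None of the 6 genes was called under the scaling, filter, test, block and single left-out library settings. After the data were examined, a fit without both Thbs2KO replicate 3 and WT replicate 1 was added, and 2 were called, Plat at a log2 fold change of 0.50 and Plaur at -0.91. It kept only the most alike pair of libraries of each genotype. The standard error fell from 0.236 to 0.079 for Plat and from 0.349 to 0.075 for Plaur. In that fit Plau (-0.04), Fap (-0.05), Man2b2 (-0.06) and Nuak1 (-0.39) changed sign. Without Thbs2KO replicate 3 the sign turned for Plau (-0.24), Serpine2 (-0.16), Ctsk (-0.06), Mmp14, Man2b2, Ccpg1, Crebrf, Rin2, Nuak1 (-0.09) and Vegfd, and without WT replicate 1 for Nuak1. With 1 library left out, log2 fold changes ran from 0.24 to 0.69 for Plat, -0.24 to 0.32 for Plau, -1.14 to -0.63 for Plaur, -0.16 to 0.60 for Serpine2, 0.28 to 0.92 for Fap and -0.06 to 0.77 for Ctsk, and from -0.04 to 0.37 for Mmp14, -0.23 to 0.30 for Man2b2, -0.22 to 0.38 for Ccpg1, -0.07 to 0.64 for Crebrf, -0.13 to 0.75 for Rin2, -0.12 to 0.51 for Nuak1 and -0.10 to 0.87 for Vegfd. Over all genes 148 were called as reported, 680 by DESeq2, 245 with no filter, 38 to 397 with 1 library left out, 1519 without both libraries and 40 with Thbs2KO replicates 1 and 2 summed, also chosen after the data were examined. In the pathway lists, with 69 genes tested as reported, 1 gene was called as reported, where 1.09% of all tested genes were. There were 6 by DESeq2, where it called 4.37% of all genes, and 16 without both libraries, where 11.2% were called. RLE scaling, the stricter filter and the summed pair called 0, no filter called 3, and the fits with 1 library left out called 0 to 3. Deviations from the group mean correlated at -0.292, 0.171 and -0.331 between libraries with the same replicate number, for replicates 1, 2 and 3. With 3 libraries per group these correlations cannot show whether the numbers pair them. The count columns carry the same CAF numbers in both genotypes, and the labels do not say whether these mark pairs. The fit with the replicate block called 30 genes, 0 in the lists and 0 of the 6, and Thbs2 had a log2 fold change of -2.86 that did not pass. RLE and upper-quartile scaling moved the median of all genes by less than 0.005 on the log2 scale. The causes of these shifts were not tested. With 64 to 270 reads per library, Fap rests on the fewest reads of the 6 genes.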
